A study of Homo sapiens with 2 samples.

Results

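The genes described here encode the machinery that brings proteins into human mitochondria, folds them there, trims them and degrades them. The 47 genes were listed by name for their function, and no measured value entered the rule, though earlier results of these data were known when the list was made. They were ordered by the step they serve: 10 at the outer membrane, 16 at the inner membrane and in the intermembrane space, 6 in folding, 5 in processing and 10 in degradation. Of these, 43 had at least 1 probe set, the array's unit of measurement, that was annotated with their symbol alone, out of 18417 genes so named on the array. The 4 others were TOMM5, TOMM6, TOMM7 and PAM16, each of which shares its listed probe set with a second symbol, so no value is given for them. For TOMM22 and TIMM8B, which have 2 probe sets each, the one with the higher mean intensity was used.

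RNA came from U251, an established human glioblastoma line grown in high-glucose DMEM. One culture condition was the solvent control DMSO and the other was 5 µM G-TPP, both for 6 h. G-TPP is a Gamitrinib, an Hsp90 inhibitor joined to a lipophilic cation that carries it into mitochondria, where the Hsp90 homologue TRAP1 is its intended target. Each condition had 1 array, so neither errors nor p-values can be given, and "higher" and "lower" compare these 2 arrays only. In bulk RNA, fewer cells of a type and less RNA per cell cannot be told apart.

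Most mitochondrial proteins are made in the cytosol and enter through the TOM complex of the outer membrane. The TIM23 complex then passes those with a presequence to the matrix, the small TIM chaperones and TIM22 insert carriers into the inner membrane, and the matrix Hsp70 with its exchange factors completes the pull. Inside, peptidases remove the presequence, the Hsp60 and Hsp10 chaperonin folds the chain, and ATP-dependent proteases remove what does not fold. Loss of folding capacity in the matrix is known, from other work, to raise the transcripts of the chaperonin and of matrix proteases in many cells, a programme named the mitochondrial unfolded protein response.

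The upstream sequences of the genes at both ends of the range are shown first, because the chaperonin pair shares one such stretch and the others belong to the members with large differences. They come from RefSeq, build GRCh38.p14, and run 5′ to 3′ on the gene's strand up to the base before the start site. The set of start sites used here covered 42 of the 47 genes and lacked CLPP, GRPEL1, TIMM8B, TOMM5 and YME1L1. Stretches were ended where another annotated gene begins. Capitals mark a match to any of 5 motifs searched on both strands. These were the heat shock element GAANNTTC, the CHOP and ATF4 element TGATGNAA, the NRF1 palindrome (GCGC on both sides of any 2 bases), the cAMP response element TGACGTCA and the YY1 element GCCATNTT.
HSPD1-HSPE1, between the start sites of both genes, chr2:197500275-197500378, HSPE1 strand (+): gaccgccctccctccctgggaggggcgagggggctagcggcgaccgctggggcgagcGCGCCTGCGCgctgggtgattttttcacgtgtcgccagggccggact
GRPEL2, chr5:149345249-149345498, + strand: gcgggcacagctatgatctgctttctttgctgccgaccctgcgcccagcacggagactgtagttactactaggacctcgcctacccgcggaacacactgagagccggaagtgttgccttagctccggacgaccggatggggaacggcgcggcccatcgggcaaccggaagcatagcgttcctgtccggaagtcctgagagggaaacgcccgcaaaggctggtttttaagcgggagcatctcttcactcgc
LONP1, chr19:5720453-5720636, - strand: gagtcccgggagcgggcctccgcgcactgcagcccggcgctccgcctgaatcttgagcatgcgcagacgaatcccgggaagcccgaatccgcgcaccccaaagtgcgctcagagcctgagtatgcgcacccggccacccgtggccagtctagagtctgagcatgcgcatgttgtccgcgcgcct
PMPCA, chr9:136410615-136410657, + strand: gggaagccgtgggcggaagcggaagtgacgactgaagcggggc

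HSPD1 and HSPE1 are transcribed away from each other, and 104 bases separate the HSPE1 start from the nearer listed start of HSPD1. This stretch holds 1 NRF1 palindrome, whose first base lies 47 bases before the HSPE1 start. The other 3 stretches hold none of the 5 motifs. At GRPEL2 an NRF1 palindrome begins at base 8 after the start and a YY1 element at base 39, and at PMPCA a YY1 element begins at base 9 after the start, all outside the printed stretch. LONP1 has 2 listed start sites, of which the upstream one is shown. An NRF1 palindrome in its full window begins 200 bases before that start, in the part trimmed off because CATSPERD lies there. Both HTRA2 windows overlap AUP1 and are not printed.

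Over the full windows, from 250 bases before to 50 bases after the start, the NRF1 palindrome was found in 13 of 42 genes (31.0%). The share was 9.98% of all 27305 genes in the table and 18.5% of those whose transcripts passed the brightness filter described next. The 42 include members under that filter or with no value, among them CHCHD4, TOMM7 and PAM16, which hold the motif. Among members that passed, 10 held it and 26 did not. NRF1 is a transcription factor of many nuclear genes for mitochondrial proteins. Members that hold its motif lay on both sides, from SPG7 at a log2 difference of -0.40 to GRPEL2 at 0.67, with a median of -0.02 over 10 genes against -0.09 over the 26 without it. The YY1 element was in 10 of 42 genes (23.8%), against 7.97% of all genes and 12.7% of those that passed. All 10 passed the filter, beside 26 members that passed without the element. Shares of members for this and the following motifs are over the 42, not over those that passed alone. The heat shock element was in HSPD1 alone (2.38% of members, 8.21% of all genes, 6.30% of those that passed), 240 bases before its second listed start. The CHOP and ATF4 element was in PMPCB and TIMM22 (4.76%, against 4.46% of all genes and 2.76% of those that passed), whose log2 differences were -0.10 and -0.05. XPNPEP3 alone held the cAMP response element (2.38%, against 2.25% of all genes and 3.90% of those that passed). A match is a string of letters, not a measured binding site.

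A gene was kept for counts if its brighter array reached an intensity of 239.2, the median over all probe sets. This left 11091 genes, and 40 of the 43 measured members. CHCHD4, TIMM23 and HSCB were under it in both arrays. Of 7 glioma and astroglial markers 6 passed the filter. VIM and CD44 were at log2 differences of -0.14 and -0.07, and the glial filament gene GFAP was near the filter at 245.2 with DMSO and 231.5 with G-TPP. SOX2 went from 4434 to 1629 (2.72-fold lower), SOX9 from 921.9 to 466.7 (1.98-fold lower) and NES from 962.8 to 678.8 (1.42-fold lower), and their part in the results was not tested. S100B was under the filter. PTPRC, PECAM1, EPCAM, CDH1 and ALB, which define blood, vessel, epithelial and liver cells, were all under the filter. Of 14 markers of such other cell types 4 passed it, namely CD68, TYROBP, CDH5 and RBFOX3, with TYROBP at 305.7 and 220.4; the summed intensity of the 14 was 2595 with DMSO and 2345 with G-TPP, and their part in the results was not tested. Olfactory receptor genes, mostly silent outside the nose, gave a spread of differences of 0.19 (SD of 361 genes on the log2 scale). That spread describes dim probe sets of these 2 arrays and leaves out any difference between cultures.

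Transcripts of this machinery differed between the arrays about as much as those of kept genes in general. The few larger differences pointed both ways. GRPEL2, a nucleotide exchange factor of the matrix Hsp70, was 1.59-fold higher with G-TPP, while PMPCA of the presequence peptidase and the protease gene HTRA2 were 1.83-fold and 1.57-fold lower. These 3 of 40 kept members reached 1.5-fold, and none reached 2-fold. Among all kept genes 10.6% reached 1.5-fold in either direction, 7.37% higher and 3.23% lower, and 3.35% reached 2-fold (2.8% higher, 0.55% lower), so the members' share in either direction (7.5%) and their share higher (1 gene, 2.5%) were under the background. Their share lower (2 genes, 5.0%) was above it, and 3 of 40 lay below the 5th percentile of all kept genes. Between the 25th and 75th percentiles of all kept genes (-0.21 and 0.19) lay 22 of the 40. With so few genes past 1.5-fold, these shares are too near the background to be read as a trait of the members. The median log2 difference of the 40 members was -0.06, with 14 above 0 and 26 below, beside a median of -0.04 over all kept genes, of which 55.9% were below 0. Past a smaller log2 difference of 0.32 there were 4 members higher and 5 lower, against 16.4% and 13.4% of kept genes, or 29.9% in either direction.

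**Figure D1:**
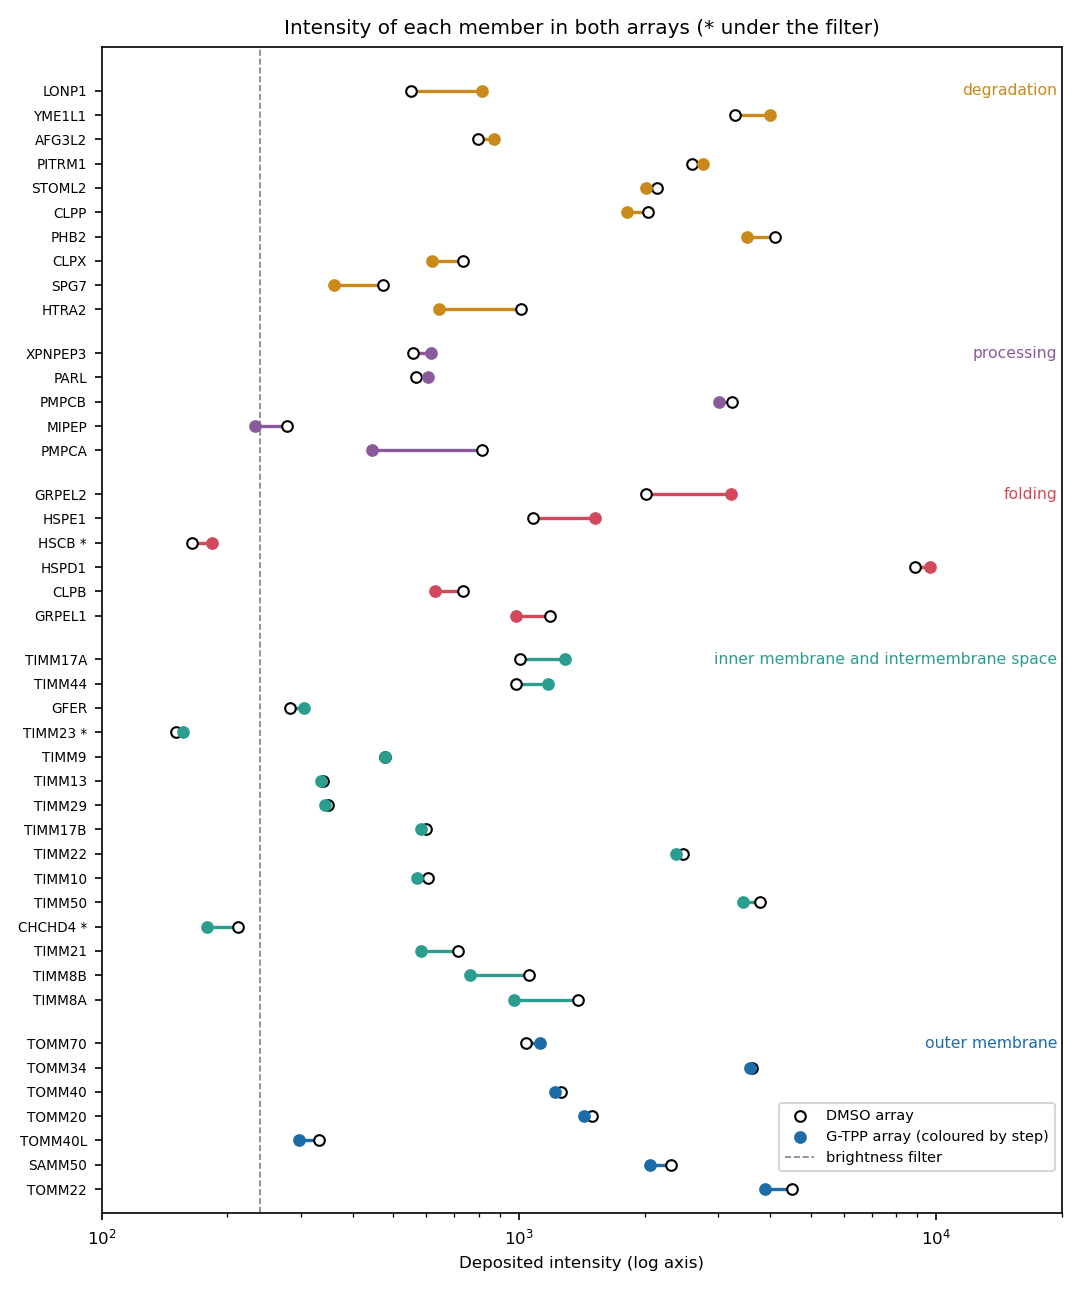
Deposited intensity (log axis) of the 43 measured members in the DMSO array (open circles) and the G-TPP array (filled, coloured by step), ordered within each step by their difference. The dashed line is the filter at 239.2, and the longest lines are those of PMPCA, GRPEL2 and HTRA2; levels of different genes should not be compared, as each has its own probes.

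The outer membrane step showed the narrowest spread. Its 7 kept members had a median log2 difference of -0.06, from -0.21 to 0.11, and none was past 0.32 in either direction. TOMM70, the receptor for carriers and other proteins without a presequence, went from 1037 in the DMSO array to 1121 in the G-TPP array (1.08-fold higher). It was the only kept member of this step above 0 in the deposited values. TOMM20, the presequence receptor, stood at 1494 and 1433, and TOMM40, which forms the pore, at 1261 and 1221. Its less studied relative TOMM40L was at 331.0 and 297.9. TOMM22, the receptor that also organises the complex, had the lowest difference of the step, at 4510 and 3890 (1.16-fold lower). Its other probe set read 1054 and 908.8, and both gave a log2 difference of -0.21. SAMM50, the core of the sorting machinery that inserts barrel proteins, was at 2309 and 2060 (1.12-fold lower). TOMM34, a cochaperone of preproteins in the cytosol, had 3624 and 3581, and its sign turned when the median of all kept genes was set to 0.

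At the inner membrane and in the intermembrane space members of the same complex lay on both sides of 0. The step's median over 13 kept members was -0.04, with 4 above 0 and 9 below, and it moved to 0.00 when the median of all kept genes was set to 0. None of the 13 reached 1.5-fold. The lowest were TIMM8A and TIMM8B, paralogs that escort a subset of inner membrane proteins across the intermembrane space. TIMM8A went from 1384 with DMSO to 971.7 with G-TPP (1.42-fold lower), a difference lower than that of 95.4% of kept genes. TIMM8B went from 1060 to 761.7 (1.39-fold lower), and its second probe set from 955.6 to 717.9, so each of its probe sets was lower with G-TPP. The proteins of TIMM8A and TIMM13 assemble into one ring.

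TIMM13 was near level, at 339.4 and 335.8, a log2 difference 0.49 above that of TIMM8A. The ring that carries metabolite carriers, made of TIMM9 and TIMM10, was near level, at 476.4 and 477.8 for TIMM9 and 607.0 and 568.3 for TIMM10. Of the carrier translocase, the channel gene TIMM22 was at 2475 and 2384 and its metazoan subunit gene TIMM29 at 349.3 and 343.3. For the disulfide relay that traps small proteins in this space, the sulfhydryl oxidase gene GFER was at 282.6 and 306.0. The oxidoreductase gene CHCHD4, under the filter, was at 212.6 and 178.6.

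The presequence translocase TIM23 held the members of this step that were higher with G-TPP by most. TIMM17A, a channel subunit, went from 1007 to 1290 (1.28-fold higher), and 14.6% of kept genes had a higher difference. Its paralog TIMM17B was at 598.0 and 580.9, so the log2 differences of the pair lay 0.40 apart. The gap was 0.35 to 0.40 over 6 alternative treatments of the data, some of which cannot change a gap, as given below. TIMM44, which tethers the import motor to the channel, went from 982.4 to 1172 (1.19-fold higher). TIMM50, the receptor of the complex, was at 3776 and 3434, and TIMM21, which links it to TOM and to the respiratory chain, at 715.9 and 581.5 (1.23-fold lower). The channel gene TIMM23 itself was under the filter, at 150.8 and 156.9, and 2 further probe sets list it together with TIMM23B and were not used. Within TIM23, 2 kept members were above 0 and 3 below in the deposited values. Of these 3, TIMM17B was at -0.04, level with the median of all kept genes. It turned above 0 when that median was set to 0, so the split depends on the centring.

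**Figure D2:**
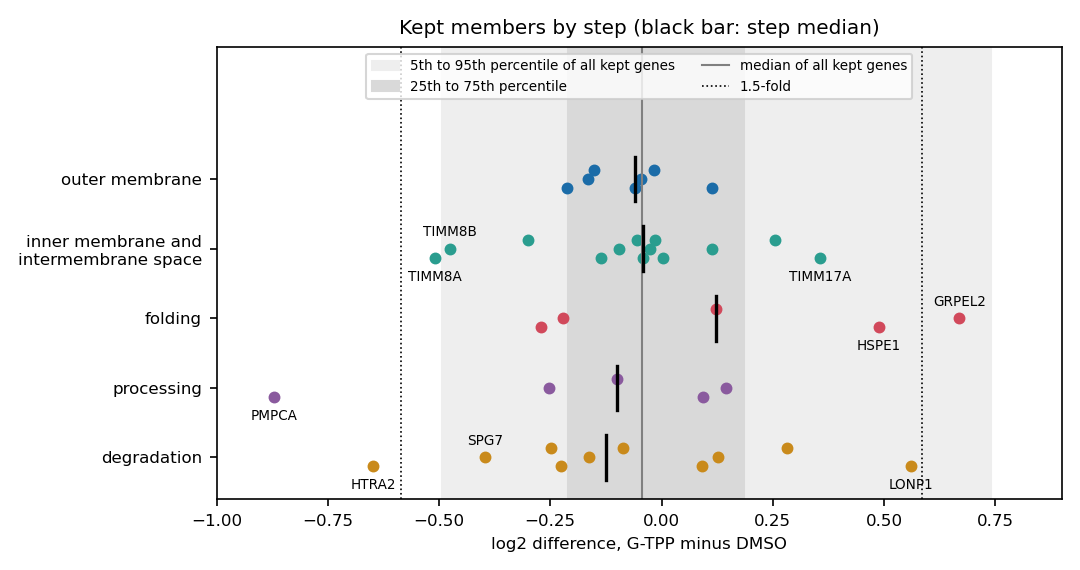
Log2 difference, G-TPP minus DMSO, of the 40 kept members by step; each point is a gene, the black bar is the step median, and genes past 0.35 in either direction are named. The grey bands hold the middle of all 11091 kept genes; PMPCA, HTRA2 and TIMM8A are the only members outside the 5th to 95th percentile band (-0.49 to 0.74), and all 3 lie below it.

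Folding was the only step with a median above 0 in the deposited values, at 0.12 over 5 kept members. GRPEL2 went from 2020 with DMSO to 3214 with G-TPP, and 5.85% of kept genes had a higher difference. HSPE1, which encodes the Hsp10 lid of the chaperonin, went from 1083 to 1520 (1.40-fold higher). HSPD1, the Hsp60 barrel itself, read 8873 and 9659 (1.09-fold higher). Both genes of the chaperonin thus read higher with G-TPP, though 30.2% of kept genes had a higher difference than HSPD1. Their log2 differences lay 0.37 apart. They share the stretch shown above, but HSPD1 has a second listed start, and which start was in use was not measured. GRPEL1, the essential paralog of GRPEL2, went the other way, from 1186 to 982.5 (1.21-fold lower). CLPB, a disaggregase of the intermembrane space, was at 732.7 and 628.7 (1.17-fold lower). The iron-sulfur cluster cochaperone gene HSCB, under the filter, was at 164.7 and 183.4.

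Processing had a median of -0.10 over 5 members, with 2 above 0 and 3 below. PMPCA, the substrate-binding alpha subunit of the mitochondrial processing peptidase, went from 815.5 with DMSO to 445.7 with G-TPP. Its log2 difference of -0.87 was the lowest of all members, and 0.85% of kept genes were lower still. PMPCB, the catalytic beta subunit that works in a dimer with PMPCA, read 3232 and 3014 (1.07-fold lower). MIPEP and XPNPEP3, which trim further residues after this peptidase, were at 277.7 and 232.9 and at 555.8 and 614.2. PARL, an intramembrane rhomboid protease, was at 566.2 and 604.1. The low value of PMPCA was therefore not shared by the other processing genes, none of which was past 0.32 on the log2 scale.

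Degradation held a member near each end. Its 10 members had a median of -0.13, with 4 above 0 and 6 below. LONP1, the matrix protease that removes damaged and unassembled proteins, went from 552.5 with DMSO to 814.8 with G-TPP (1.47-fold higher), just under the 1.5-fold line. It passed that line, with a log2 difference of 0.60, when the median of all kept genes was set to 0. The other matrix protease, ClpXP, did not share this direction: its peptidase gene CLPP read 2034 and 1816 (1.12-fold lower) and its unfoldase gene CLPX 735.0 and 618.3 (1.19-fold lower). Both therefore lay on the low side, with log2 differences 0.09 apart.

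The membrane-bound AAA proteases also divided. YME1L1, which faces the intermembrane space, went from 3285 to 3993 (1.22-fold higher). AFG3L2, which faces the matrix, was at 799.6 and 873.1 (1.09-fold higher). SPG7, the paraplegin that assembles with AFG3L2, went from 473.5 to 359.6 (1.32-fold lower), so the subunits' log2 differences lay 0.52 apart. HTRA2, a serine protease of the intermembrane space that can promote cell death once in the cytosol, went from 1009 to 644.0, and 2.42% of kept genes had a lower difference. PITRM1, which degrades cleaved presequences, was at 2592 and 2760. The scaffold genes PHB2 and STOML2, whose proteins hold proteases in membrane domains, were at 4108 and 3515 and at 2136 and 2011.

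The gap between genes of paired subunits or paralogs ranged from 0.03 to 0.94 on the log2 scale. The widest gap was between GRPEL1 and GRPEL2, at 0.94 (0.93 to 0.96 over 6 alternatives), followed by PMPCA and PMPCB at 0.77 (0.73 to 0.77). SPG7 and AFG3L2 came next at 0.52 (0.45 to 0.52). TIMM8A and TIMM8B were 0.03 apart, CLPP and CLPX 0.09, and TIMM9 and TIMM10 0.10. TOMM40 and TOMM40L were 0.11 apart, and their order turned in 1 of 6 alternatives. Median centring shifts both genes of a pair alike and so cannot change a gap. The alternatives on probe sets can change only the gap of TIMM8A and TIMM8B, as the other genes named here have 1 probe set each. The narrow ranges are therefore no measure of precision, and no replicate array gives an error for these gaps.

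**Figure D3:**
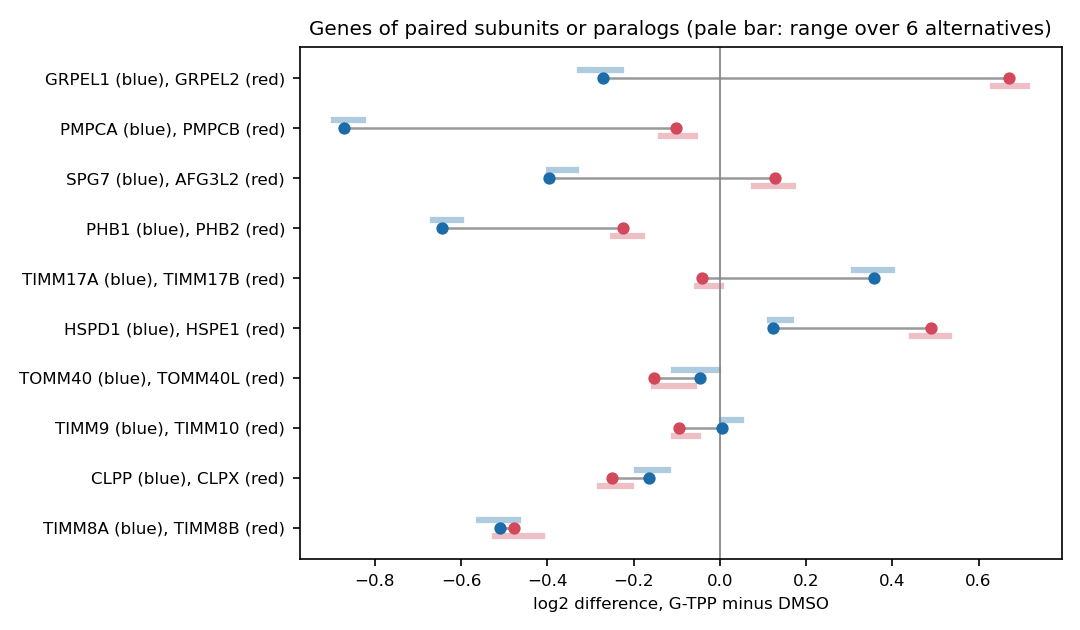
Log2 difference, G-TPP minus DMSO, of genes that encode paired subunits or paralogs, ordered by the gap between them; points are the deposited values and the pale bars show the range over 6 alternatives. GRPEL1 and GRPEL2 lie 0.94 apart and TIMM8A and TIMM8B 0.03 apart.

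Partners of the machinery outside the 47 genes had log2 differences from -0.64 to 0.54, beside -0.87 to 0.67 for the members. Of 25 listed partners 23 were measured and 20 kept, with a median log2 difference of -0.11, 7 above 0 and 13 below, and 1 (5.0%) at 1.5-fold, against 10.6% of all kept genes. That gene was PHB1, which forms the prohibitin ring with PHB2. It went from 4935 with DMSO to 3158 with G-TPP (1.56-fold lower), beside 1.17-fold lower for PHB2. HSPA9, the matrix Hsp70 that GRPEL1 and GRPEL2 serve, went from 6062 to 8077 (1.33-fold higher), and its Hsp40 partner DNAJA3 from 1314 to 1595 (1.21-fold higher). ATAD1, which extracts mislocalised proteins from the outer membrane, went from 879.2 to 1279 (1.45-fold higher). AIFM1, the binding partner of CHCHD4, went from 1153 to 816.9 (1.41-fold lower). The target TRAP1 read 2850 and 2297 by its brighter probe set, and 231.3 and 240.5 by the other, which was under the filter with DMSO.

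Regulators tied to mitochondrial stress were divided between a group at least 2-fold higher and a group not past a log2 difference of 0.32 in either direction. Of 11 listed, 4 reached 2-fold higher, against 2.8% of all kept genes, and none reached 1.5-fold lower, against 3.23%. The list was made with earlier results of these data known, so these counts are no test, and ATF4 is among the 4 by 1 of its 2 probe sets only. DDIT3, which encodes CHOP, went from 371.6 to 3104, the widest difference of the 11. JUN, ATF4 by its probe set with the higher mean, and CEBPB were 2.77-fold, 2.33-fold and 2.26-fold higher. The ATF4 probe set that was used went from 1255 to 2919. Its other probe set, the brighter one with DMSO, went from 1785 to 1327, a log2 difference of -0.43. ATF5, a transcription factor of the mitochondrial unfolded protein response, was at 569.8 and 591.6, and the relay gene DELE1 at 573.1 and 544.0. NRF1 was at 343.5 and 391.3 (1.14-fold higher), and the heat shock factor gene HSF1 at 945.9 and 779.9 (1.21-fold lower). The cytosolic chaperonin, the counterpart of Hsp60 and Hsp10 outside mitochondria, had a median of 0.11 over 8 kept subunits, 7 of them above 0 and none past 0.32. CCT4 was the highest of these, at 3562 and 4432 (1.24-fold).

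**Figure D4:**
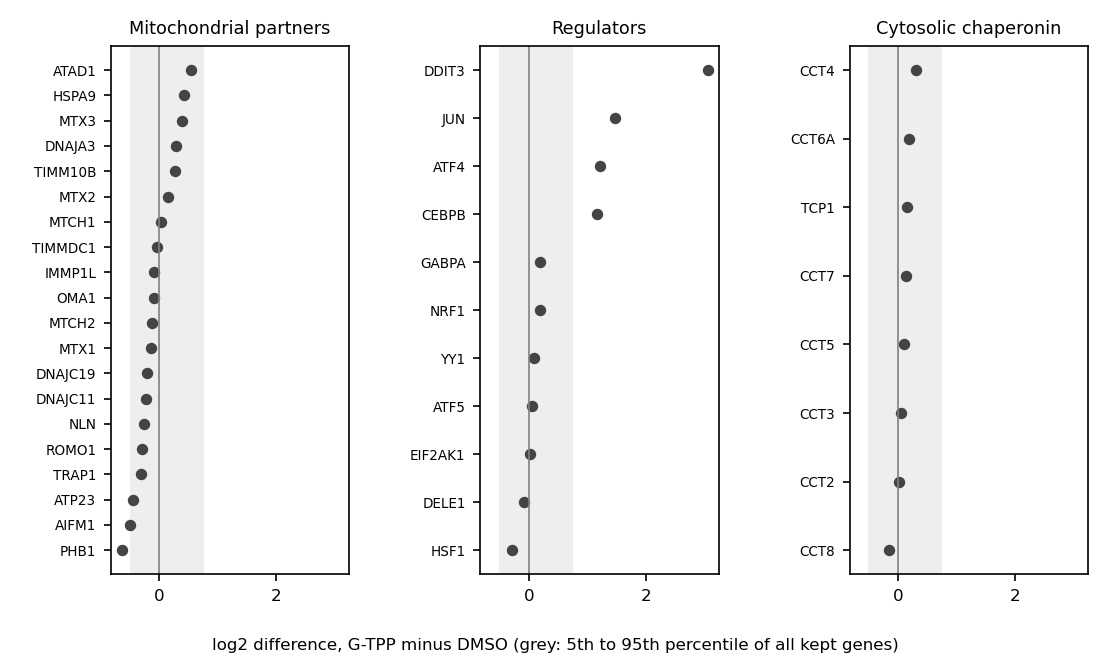
Log2 difference, G-TPP minus DMSO, of kept partner genes, regulators and cytosolic chaperonin subunits, each a point; the grey band is the 5th to 95th percentile of all 11091 kept genes. DDIT3, JUN, CEBPB and ATF4 (by its probe set with the higher mean) lie above the band. PHB1 and AIFM1 lie below it, and the chaperonin subunits lie within it.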

How the data were processed

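Per the submitters' processing notes, the authors computed the deposited intensities with RMA in Affymetrix Expression Console 1.1.2. The intensity values are on a linear scale. How they came to it, and which arrays were normalized together, is not given in the sources used here. RMA makes array distributions alike, so a change in total RNA per cell is not visible. Precision is limited by the number of arrays, 1 per group.

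Probe sets with 1 symbol in the platform annotation (19460 of 33297) were named by gene ID through RefSeq, GRCh38.p14, where 19429 matched. Per gene the probe set with the highest mean of both arrays was used. The log2 difference was G-TPP minus DMSO with no pseudocount. Genes were counted by size at 1.5-fold in place of a test.

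Members, steps, lists, motifs and alternatives were chosen with earlier results of these data known. All members and listed partners could be named. The planned identity of paralogous proteins was not computed. Software was matplotlib 3.10.9, statsmodels 0.14.6, pandas 2.3.3 and numpy 2.4.6 under Python 3.11.15.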

Additional observations from a re-analysis of the deposited data

How the results depend on the processing

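No paired analysis was possible because each group has 1 array, and for the same reason no array could be left out. The 6 alternatives for single values were lowess or median centring, quantile normalization, 16 added to each intensity, the mean over probe sets and the dimmest probe set. PMPCA, HTRA2 and GRPEL2 were past 1.5-fold in all 6, and no kept member moved by more than 0.12 on the log2 scale. The mean over probe sets and the dimmest probe set cannot change a member with 1 probe set, such as these. Only TOMM22 and TIMM8B have 2, so for the other members these 2 alternatives are no check. Of 40 kept members 36 kept their sign in all 6, and the exceptions were TOMM34, TIMM13, TIMM29 and TIMM17B. Under lowess centring 2 members under the filter moved further, TIMM23 to 0.30 and HSCB to 0.37. The curve was fitted to kept genes only, and kept genes as dim as these passed the filter by 1 array alone. These 2 shifts are therefore no check of their values. The median over all members lay between -0.10 and -0.01 over these and 4 more alternatives. The median over all kept genes moved as well, so the distance between both medians was not constant. At the 75th percentile filter the members were at -0.09 and all kept genes at 0.02. Under quantile normalization they were at -0.10 and -0.04, and with the median of kept genes set to 0 the members were at -0.01. The processing median fell to -0.49 at the 75th percentile filter. Only PMPCA and PMPCB of that step passed it, so this value is the mean of that pair. Setting the median of kept genes to 0 gave 2 members at 1.5-fold higher, with LONP1 added. Past a log2 difference of 0.32, 4 members were higher and 5 lower, and at 2-fold there were 0 and 0, as a size rule must give fewer at a higher fold. The counts over all kept genes were 1822 higher and 1491 lower past 0.32, 310 and 61 at 2-fold, and 194 lower at 1.5-fold with the 75th percentile filter. Background signal left in dim probe sets pulls their differences towards 0.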

Other observations

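Genes next to the members with large differences were looked up after their values were seen, using the order of genes in RefSeq. ENTR1, the neighbour of PMPCA on the side of its start site, was at 673.3 with DMSO and 620.9 with G-TPP, a log2 difference of -0.12 beside -0.87 for PMPCA. AUP1, which overlaps the HTRA2 start windows, was at 1903 and 1732, a log2 difference of -0.14 beside -0.65 for HTRA2. PCYOX1L, next to GRPEL2, was at 507.5 and 422.8, a log2 difference of -0.26 beside 0.67. RPL36, a ribosomal protein gene next to LONP1, was at 3368 and 2615, a log2 difference of -0.36 beside 0.56. On the other sides INPP5E, next to PMPCA, had a log2 difference of -0.04. LOXL3 next to HTRA2 (-0.22), AFAP1L1 next to GRPEL2 (-0.05) and CATSPERD next to LONP1 (73.9 in both arrays) were under the brightness filter. The members were chosen for their large differences, so a smaller difference at a neighbour is no finding.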
